A study of Mus musculus with 10 samples.

Results

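Interferon regulatory factors (IRFs) are transcription factors that share an N-terminal DNA-binding domain and bind GAAA-containing elements in interferon and interferon-stimulated genes. The 7 genes described here are Irf1, Irf2, Irf3, Irf4, Irf5, Irf7 and Irf8, taken by name from the 55573 genes of the deposited table, and all 7 passed the filter of at least 1 CPM (reads of a gene scaled to the library's total on genes) in at least 2 libraries. Their mRNA was measured in bone marrow-derived macrophages (BMDMs) grown with M-CSF from female wild-type C57BL/6 mice, after 4 h in 5 groups of 2 libraries each. The groups were vehicle; polyU, a single-stranded poly-uridine RNA given at 5 µg in complex with the transfection lipid DOTAP; PNPi+dG/rG, which is 1 µM ulodesine, an inhibitor of purine nucleoside phosphorylase, with 5 µM deoxyguanosine and 5 µM guanosine; PNPi+dG/rG+polyU, called the combination below; and 1 ng/mL R848, a synthetic imidazoquinoline. Whether the vehicle contained DOTAP and how old the mice were is not given in the sources used here. The study set guanosine nucleosides with single-stranded RNA, the natural ligand pair of TLR7, beside R848, which acts on TLR7 without RNA, and the comparisons below ask how each treatment moved each IRF mRNA.

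As background, TLR7 in the endolysosome signals through MyD88, IRAK kinases and TRAF6 to NF-κB and to IRF5 and IRF7, which move to the nucleus once phosphorylated. IRF1 is an interferon- and NF-κB-inducible activator and IRF2 binds the same elements, often as its antagonist. IRF3 is made constitutively, IRF7 is itself an interferon-stimulated gene, and both drive type I interferon genes. IRF8 and IRF4 bind DNA weakly alone and act with partners such as PU.1, and IRF8 is a lineage factor of monocytes and macrophages. Much of the activity of these proteins is set by phosphorylation and location, which mRNA levels do not measure.

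The promoters of the 4 members with the clearest mRNA differences are shown so that the elements named below can be read in place. RefSeq windows (assembly GRCm38.p6, 250 bases before to 50 bases after the start) matched all 7 members, and only the bases upstream of the start are printed, 5′ to 3′ on the gene's strand. For Irf7 this leaves 193 bases, because the GENCODE start lies upstream of the RefSeq one. Capitals mark matches to 4 motifs searched on both strands: the interferon-stimulated response element core (GAAA, any 2 bases, GAAA), the STAT-binding GAS element TTCNNNGAA, the ETS-IRF composite element (GGAA, any 2 bases, GAAA) and the κB consensus, bound by NF-κB.
Irf1, chr11:53769764-53770013, plus strand: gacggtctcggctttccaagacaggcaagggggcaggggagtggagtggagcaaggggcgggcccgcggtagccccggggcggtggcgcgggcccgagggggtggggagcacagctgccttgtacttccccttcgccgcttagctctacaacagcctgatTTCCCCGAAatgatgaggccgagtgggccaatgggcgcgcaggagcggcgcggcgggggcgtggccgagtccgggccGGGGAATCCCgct
Irf8, chr8:120736108-120736357, plus strand: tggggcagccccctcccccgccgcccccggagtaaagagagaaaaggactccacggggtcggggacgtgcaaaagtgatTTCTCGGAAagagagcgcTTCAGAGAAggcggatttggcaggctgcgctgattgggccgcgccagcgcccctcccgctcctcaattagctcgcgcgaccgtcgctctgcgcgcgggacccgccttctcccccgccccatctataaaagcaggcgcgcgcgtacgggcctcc
Irf5, chr6:29526375-29526624, plus strand: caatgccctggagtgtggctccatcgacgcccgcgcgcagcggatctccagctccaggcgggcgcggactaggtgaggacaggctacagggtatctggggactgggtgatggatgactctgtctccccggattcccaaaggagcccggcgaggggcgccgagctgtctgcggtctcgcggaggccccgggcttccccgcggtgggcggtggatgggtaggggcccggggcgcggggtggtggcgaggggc
Irf7, chr7:141266482-141266674, minus strand: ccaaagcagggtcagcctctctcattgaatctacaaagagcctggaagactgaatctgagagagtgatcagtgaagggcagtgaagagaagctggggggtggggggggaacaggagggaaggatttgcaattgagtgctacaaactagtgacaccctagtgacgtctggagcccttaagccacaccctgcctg

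In the Irf1 promoter 1 GAS match lay 90 to 82 bases before the start and 1 κB match 13 to 4 bases before it. The Irf8 promoter held 2 GAS matches, and the windows of Irf3, Irf4, Irf5 and Irf7 held no match to any of the 4 motifs as spelled. The window of Irf2, not printed, had 4 matches, 1 to each motif, and its response element core and composite element overlapped. Of all 32851 RefSeq promoter windows of the same length, 3.44% held the response element core, 8.3% the GAS element, 2.72% the composite element and 4.51% the κB consensus. A match here is a match of letters, and binding was not measured.

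Libraries held 14128125 to 38392579 reads on genes, the combination libraries being the shallowest and the PNPi+dG/rG libraries the deepest. The summed CPM of 8 macrophage markers was between 13010 and 17780 in every library. Summed markers of B cells (0.141 to 1.29 CPM), plasmacytoid dendritic cells (1.498 to 5.79 CPM), conventional dendritic cells (0.113 to 1.13 CPM) and T and NK cells (1.31 to 5.95 CPM) were low in all, and Xcr1, Cd209a, Klk1, Cd3e and Ly6g had 0 reads throughout. The summed neutrophil and progenitor markers were 13.97 to 14.2 CPM with vehicle, 7.73 to 11.2 with polyU, 7.19 to 7.54 with PNPi+dG/rG and 2.39 to 3.75 with the combination or R848. Most of the vehicle sum was Kit (13.8 and 14.2 CPM), which fell to 0.584 and 0.980 CPM with R848. The neutrophil gene Camp went the other way, from 0 and 1 reads with vehicle to 12 and 8 with the combination. With R848 it had 36 and 59 reads (1.91 and 1.81 CPM), most of that group's sum. Of 6 fibroblast markers (Lum at 3 reads or fewer throughout), the sum was 0.450 to 1.26 CPM in the 8 libraries of the other groups and 102.6 to 109.9 CPM in both R848 libraries, so every R848 difference below comes with that difference, and its part was not tested. CPM are shares of a library, and over 11978 genes tested against vehicle the median log2 fold change was -0.22 (the combination), -0.50 (R848), 0.02 (polyU) and 0.02 (PNPi+dG/rG), and it was -0.24 for the combination against polyU, 0.31 against R848 and -0.27 for the interaction defined below, so a second scaling that sets the median log2 value of every library to the same value (equal medians) is given wherever it turns a direction or ends a call. In bulk RNA, fewer cells with a transcript and less of it per cell cannot be told apart. The labels call the libraries biological replicates without saying what was separate, so p-values measure the spread between these libraries only.

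**Figure D1:**
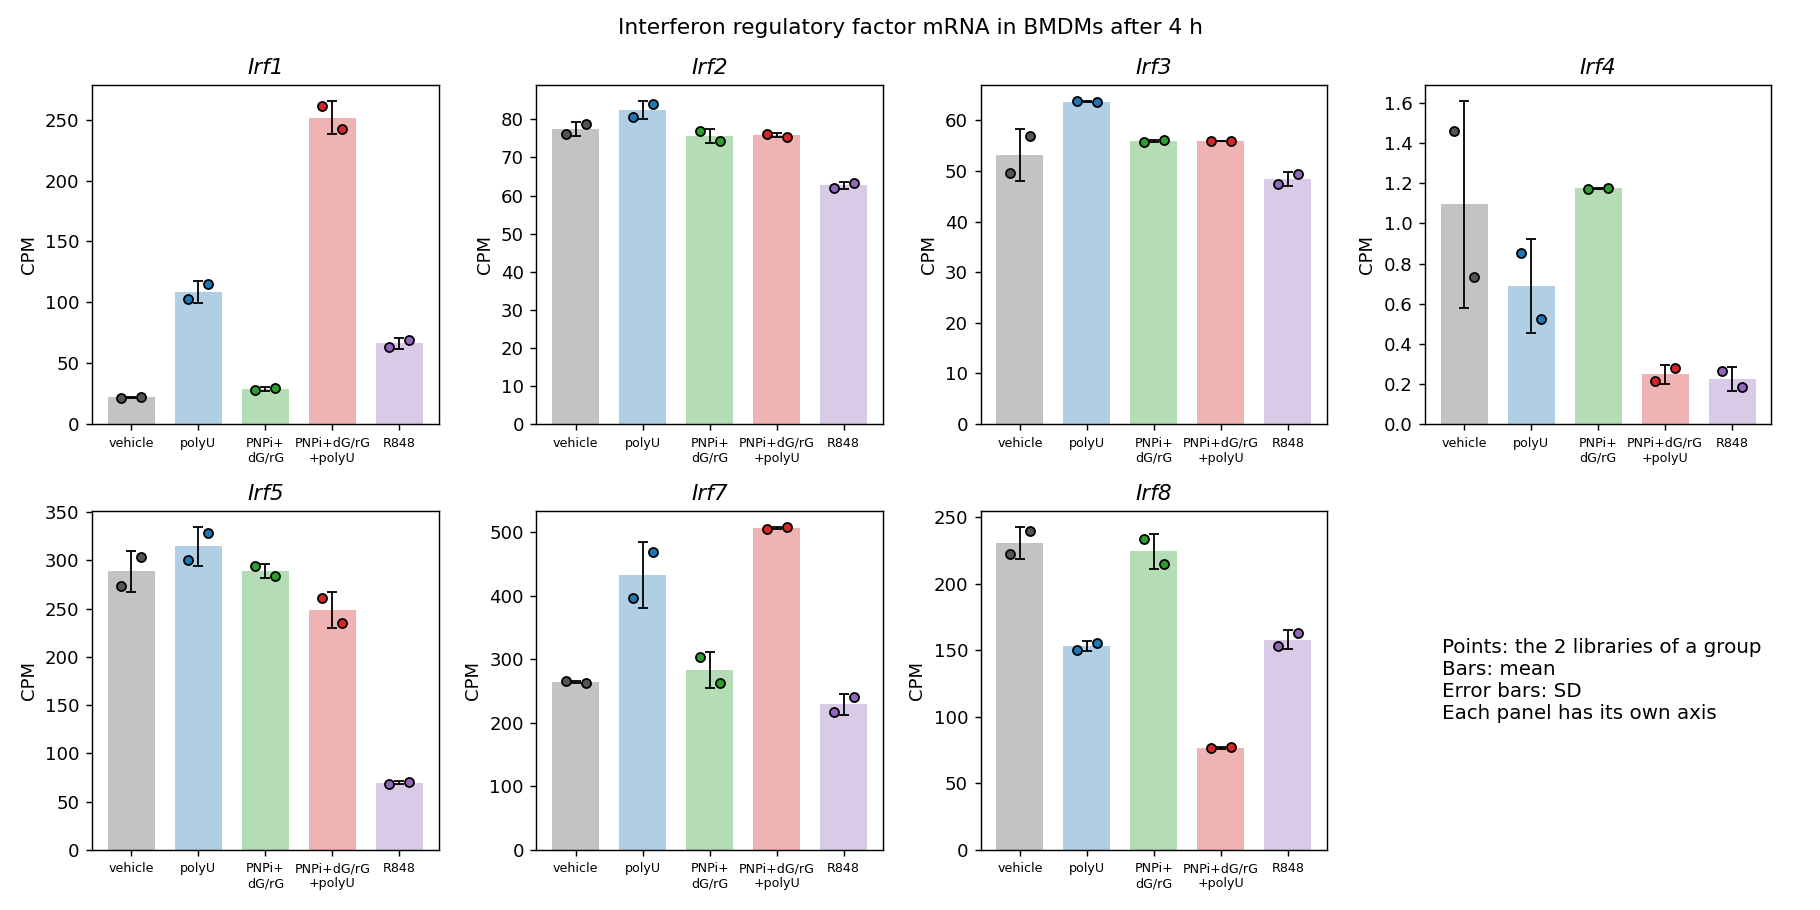
CPM (vertical axes, each panel with its own scale from 0) of the 7 members in the 5 groups, with points for the 2 libraries, bars for the mean and error bars for the SD. Irf1 has its highest points with the combination at 261 and 242 CPM, Irf5 its lowest with R848 at 68.2 and 70.7 CPM, and Irf8 its lowest with the combination at 76.2 and 76.9 CPM.

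Irf1 (ENSMUSG00000018899, chr11:53770014-53778374, GRCm38, plus strand) had the widest range of the 7, with group means up to 11.5-fold apart. Its level was 21.5 and 22.2 CPM with vehicle, 27.6 and 29.6 CPM with PNPi+dG/rG, 63.0 and 69.4 CPM with R848, 102 and 115 CPM with polyU, and 261 and 242 CPM with the combination. No group overlapped another, and in this order each neighbour differed from the next (limma on log2 CPM over all groups, adjusted p at most 0.0193). Against vehicle, Irf1 rose 4.97-fold with polyU (log2 2.31 ± 0.072 SE, adjusted p = 4.6e-12), 11.5-fold with the combination (log2 3.53 ± 0.072, adjusted p = 1.0e-15) and 3.03-fold with R848 (log2 1.60 ± 0.072, adjusted p = 6.4e-12). PNPi+dG/rG alone raised it 1.31-fold (log2 0.39 ± 0.072, adjusted p = 0.0193), and that call was lost without PNPi+dG/rG replicate 2 (adjusted p = 0.268), without vehicle replicate 1 (0.106) or without vehicle replicate 2 (0.0683). Irf1 shares 135 exon bases (3.4% of its exon length) with Gm17334 on the other strand.

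Irf2 (ENSMUSG00000031627, chr8:46739732-46847458, plus strand), the counterpart of Irf1 at shared elements, varied by 1.32-fold between its highest and lowest group means. It had 76.1 and 78.7 CPM with vehicle, 80.7 and 84.1 with polyU, 76.9 and 74.2 with PNPi+dG/rG, 76.2 and 75.4 with the combination and 61.9 and 63.4 with R848. The polyU libraries were the highest by a small margin and the R848 libraries lay below all others. The decrease with R848 was 1.24-fold (log2 -0.31 ± 0.053, adjusted p = 6.6e-05) on the CPM scale and became an increase with equal medians (log2 0.29, adjusted p = 0.000143). From vehicle to the combination the log2 difference was -0.03 (95% interval -0.14 to 0.08), and 0.18 with equal medians (adjusted p = 0.00749). Per kilobase of exon, the mean level of Irf1 was below that of Irf2 with vehicle (5.49 against 10.5 CPM per kb) and PNPi+dG/rG (7.20 against 10.2), and above it with R848 (16.7 against 8.47), polyU (27.4 against 11.1) and the combination (63.3 against 10.3).

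Irf3 (ENSMUSG00000003184, chr7:44997648-45002848, plus strand), the constitutive factor for interferon-β induction, varied little. It had 49.5 and 56.8 CPM with vehicle, 63.8 and 63.6 with polyU, 55.8 and 56.1 with PNPi+dG/rG, 56.0 in both combination libraries and 47.5 and 49.4 with R848. The polyU libraries lay above all others, and the R848 libraries below all others with R848 replicate 2 next to vehicle replicate 1. The increase with polyU was 1.20-fold (log2 0.26 ± 0.066, adjusted p = 0.00506) and was not called without vehicle replicate 1 (log2 0.16, adjusted p = 0.0837). With R848 the log2 difference from vehicle was -0.13 (adjusted p = 0.0805), was -0.23 without vehicle replicate 1 (adjusted p = 0.00655) and turned to 0.46 with equal medians (adjusted p = 8.4e-06). The combination differed from vehicle by 0.08 (adjusted p = 0.304), by 0.18 without vehicle replicate 2 (adjusted p = 0.0337) and by 0.29 with equal medians (adjusted p = 0.00103). Irf3 overlaps Bcl2l12 on the other strand by 88 exon bases.

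Irf7 (ENSMUSG00000025498, chr7:141262706-141266481, minus strand), the interferon-inducible amplifier of type I interferon and a direct substrate of TLR7 signalling, rose with both polyU treatments. Its level was 265 and 263 CPM with vehicle, 303 and 263 with PNPi+dG/rG, 396 and 469 with polyU, 505 and 508 with the combination, and 218 and 241 with R848. All 4 polyU-containing libraries lay above the other 6. The increase over vehicle was 1.63-fold with polyU (log2 0.71 ± 0.089, adjusted p = 0.000199) and 1.92-fold with the combination (log2 0.94 ± 0.089, adjusted p = 7.9e-06). With R848 both libraries were below vehicle on the CPM scale, by log2 -0.21 (95% interval -0.41 to -0.005, adjusted p = 0.0555), and this turned to an increase of log2 0.39 with equal medians (adjusted p = 0.00484). On the CPM scale the R848 decrease was called in 5 of the 10 fits that left out a library and not in the others. The log2 difference was -0.28 without R848 replicate 2. Irf7 shares 45 exon bases with Phrf1 on the other strand.

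Irf5 (ENSMUSG00000029771, chr6:29526625-29541871, plus strand), the factor that TLR7 and MyD88 use to induce inflammatory cytokines, was the member with the largest R848 decrease outside the low Irf4. Its CPM were 273 and 303 with vehicle, 300.0 and 329 with polyU, 294 and 284 with PNPi+dG/rG, 261 and 235 with the combination, and 68.2 and 70.7 with R848. The R848 libraries were far below all the others, and those of the combination lay just below the 6 remaining ones. The decrease with R848 was 4.15-fold (log2 -2.05 ± 0.063, adjusted p = 2.3e-13) and held with equal medians (log2 -1.46, adjusted p = 6.4e-11). With the combination it was 1.16-fold (log2 -0.22 ± 0.063, adjusted p = 0.00688), which with equal medians became -0.006 (adjusted p = 0.940) and which was not called without combination replicate 2 (log2 -0.14, adjusted p = 0.104) or vehicle replicate 2 (log2 -0.14, adjusted p = 0.0930). With polyU the log2 difference was 0.12 (adjusted p = 0.136), and 0.20 without vehicle replicate 2 (adjusted p = 0.0420). Tnpo3 overlaps 411 of the exon bases of Irf5 (14.1%) on the other strand. The library kit marks strand, but the strand setting of the counting is not given in the sources used here, so reads in those bases may belong to either gene.

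Irf8 (ENSMUSG00000041515, chr8:120736358-120756694, plus strand), the myeloid lineage factor, moved opposite to Irf1 with both polyU treatments. Its level was 222 and 239 CPM with vehicle, 234 and 215 with PNPi+dG/rG, 150.5 and 156 with polyU, 153 and 163 with R848, and 76.2 and 76.9 with the combination. The vehicle and PNPi+dG/rG libraries overlapped, as did those of polyU and R848, and the combination libraries lay below all others. Against vehicle, Irf8 fell 1.51-fold with polyU (log2 -0.59 ± 0.055, adjusted p = 4.9e-07) and 3.01-fold with the combination (log2 -1.59 ± 0.055, adjusted p = 4.4e-13). It fell 1.46-fold with R848 (log2 -0.55 ± 0.055, adjusted p = 1.5e-07), close to the median of all genes, and with equal medians the R848 difference was 0.05 (adjusted p = 0.420).

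Irf4 (ENSMUSG00000021356, chr13:30749226-30766976, plus strand), the factor tied to alternative macrophage activation, was near the limit of detection. It had 1.46 and 0.731 CPM with vehicle, 0.852 and 0.523 with polyU, 1.17 and 1.18 with PNPi+dG/rG, 0.212 and 0.281 with the combination and 0.266 and 0.184 with R848, from 3 to 45 reads per library. The combination and R848 libraries overlapped and lay below all others. Irf4 was 4.22-fold lower with the combination (log2 -2.08 ± 0.54, adjusted p = 0.00309) and 4.67-fold lower with R848 (log2 -2.22 ± 0.54, adjusted p = 0.00139) than with vehicle. Adding 1 CPM before the logarithm cut these to -0.73 and -0.75, and leaving out vehicle replicate 1, the higher of the pair, gave -1.58 (adjusted p = 0.0498) and -1.73 (adjusted p = 0.0270). Irf4 passed the filter through vehicle replicate 1 and both PNPi+dG/rG libraries, where it was high.

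**Figure D2:**
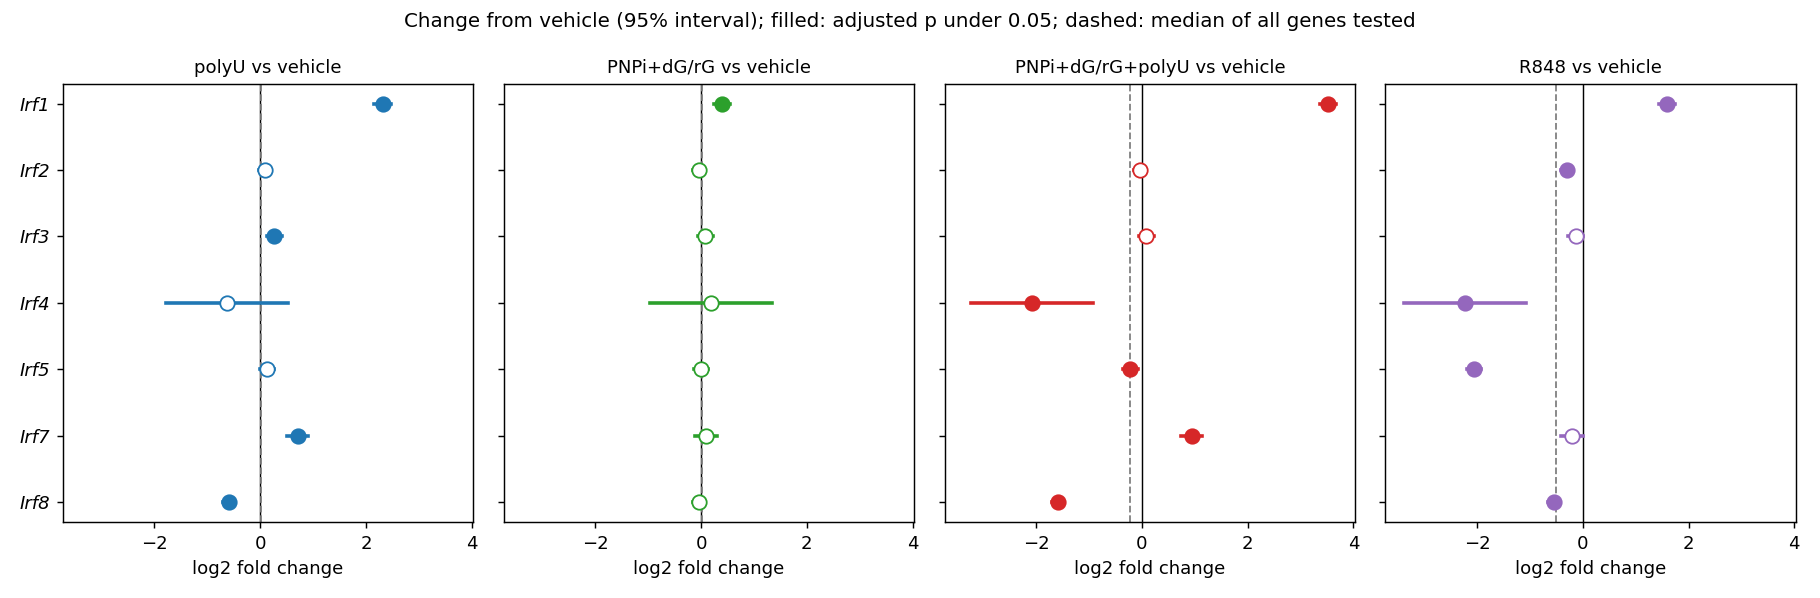
Log2 fold change from vehicle (horizontal axes) of the 7 members for each of the 4 treatments, with 95% intervals from limma; filled points passed an adjusted p of 0.05 and the dashed line is the median of all genes tested. Irf1 is right of 0 in every panel, from 0.39 with PNPi+dG/rG to 3.53 with the combination, while Irf5 reaches -2.05 with R848.

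The 4 comparisons below share the vehicle libraries. PolyU raised 3 of 7 members (Irf1, Irf3 and Irf7) and lowered 1 (Irf8), where 20.6% of all genes tested rose and 18.7% fell. PNPi+dG/rG alone raised 1 (Irf1) and lowered 0, against 0.409% and 0.392% of all genes, and at an unadjusted p under 0.05 the same comparison gave 1 member. The combination raised 2 (Irf1 and Irf7) and lowered 3 (Irf4, Irf5 and Irf8), against 22.2% and 46.7%. R848 raised 1 (Irf1) and lowered 4 (Irf2, Irf4, Irf5 and Irf8), against 19.2% and 62.9%. Irf4 entered these counts through a filter it passed where it was high, and without it 2 members were lower with the combination and 3 with R848. With equal medians 4 were raised and 2 lowered with R848 (43% and 34.6% of all genes), and 4 raised and 2 lowered with the combination (33.2% and 33.2%). At a change of 2-fold or more, the combination kept 1 higher (Irf1; 8.12% of all genes) and 2 lower (Irf4 and Irf8; 14.3%), and R848 kept 1 higher (Irf1; 8.89%) and 2 lower (Irf4 and Irf5; 30.3%). Without Irf4, whose log2 change was under 2-fold once 1 CPM was added, 1 lower member remained in each. These are counts of 7 genes beside shares of the whole transcriptome, and nothing particular to the family is read from them.

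Adding PNPi+dG/rG to polyU, the step that supplies the guanosine ligands, raised Irf1 and lowered Irf8. Relative to polyU alone, Irf1 was 2.32-fold higher (log2 1.21 ± 0.072, adjusted p = 7.4e-10) and Irf8 2.00-fold lower (log2 -0.999 ± 0.055, adjusted p = 2.8e-10), and both calls also held with equal medians. In all, 2 members were higher (15.8% of all genes) and 4 lower (47.5%), or 3 lower without Irf4. Irf7 was 1.18-fold higher (adjusted p = 0.0438), a call lost without combination replicate 1 (adjusted p = 0.124) or 2 (0.136), polyU replicate 1 (0.254), vehicle replicate 1 (0.0734) or 2 (0.0718), and lost when replicate numbers entered as a block (0.0786). Irf5 was 1.27-fold lower (log2 -0.34 ± 0.063, adjusted p = 0.000272; -0.09 and adjusted p = 0.278 with equal medians). Irf3 was 1.14-fold lower (log2 -0.19, adjusted p = 0.0237; 0.07 with equal medians), lost on leaving out combination replicate 1 (0.0741) or 2 (0.0750) or polyU replicate 1 (0.0733) or 2 (0.0661). For Irf4 the log2 difference was -1.45 ± 0.54 (adjusted p = 0.0292; 0.0747 with equal medians), and it was not called without polyU replicate 1 (log2 -1.10, adjusted p = 0.191), combination replicate 1 (-1.25, 0.102) or PNPi+dG/rG replicate 1 (0.0561) or 2 (0.0571).

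The effect of PNPi+dG/rG differed with and without polyU for 4 members in the interaction term (the effect in the presence of polyU minus that in its absence), 1 higher with polyU (11.8% of all genes) and 3 lower (38.9%). For Irf1 the log2 effect was 0.39 without and 1.21 with polyU, a difference of 0.82 ± 0.10 (adjusted p = 7.8e-06). For Irf8 it was -0.04 without and -0.999 with polyU, a difference of -0.96 ± 0.077 (adjusted p = 6.8e-08). These both held with equal medians, at 1.11 for Irf1 and -0.67 for Irf8. The differences of Irf5 (-0.35 ± 0.089, adjusted p = 0.00506) and Irf3 (-0.26 ± 0.094, adjusted p = 0.0298) did not, at -0.06 (adjusted p = 0.652) for Irf5 and, with the sign turned, 0.03 (adjusted p = 0.858) for Irf3. For Irf3 the call was also lost on leaving out any library of the 4 groups but vehicle replicate 2, with adjusted p from 0.0549 to 0.141. Irf7 had 0.14 ± 0.13 (95% interval -0.15 to 0.42), and 0.43 with equal medians (adjusted p = 0.0334). Irf2 had -0.09 ± 0.075 (adjusted p = 0.356), which turned to 0.20 with equal medians (adjusted p = 0.0433). The low Irf4 had the largest estimate, -1.635 ± 0.77, and was not called (adjusted p = 0.0873), so its interaction is unresolved at this depth.

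**Figure D3:**
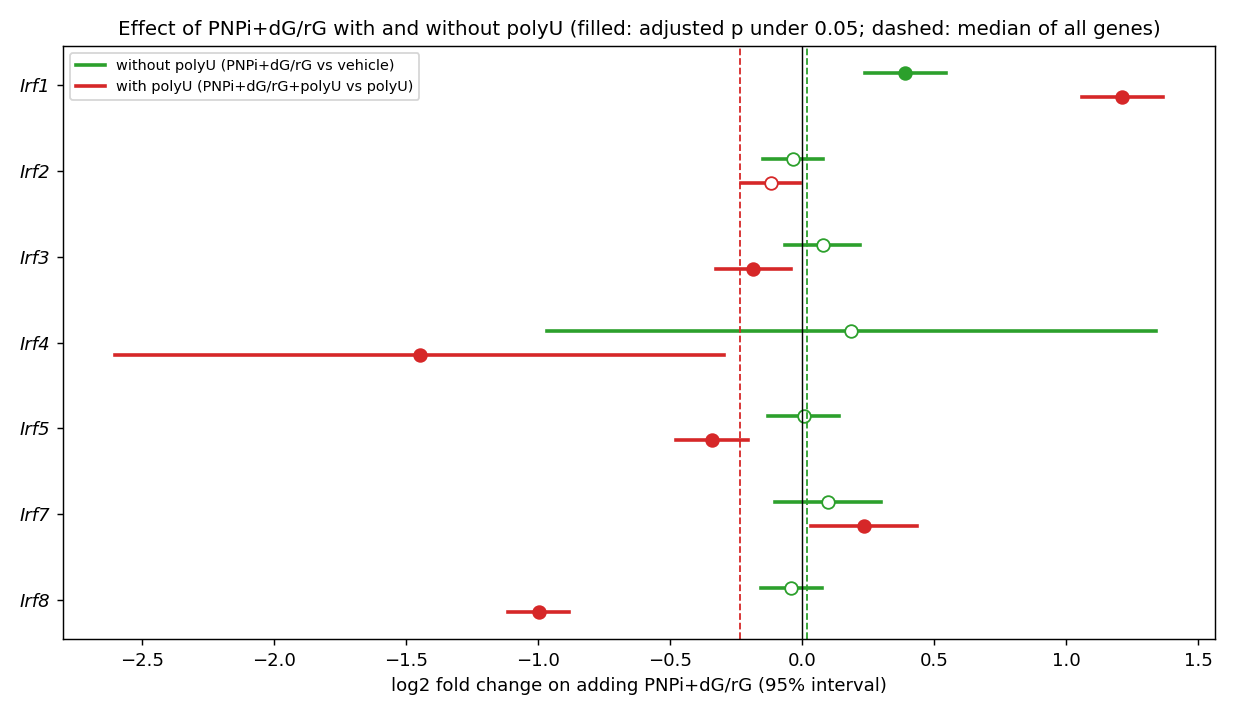
Log2 fold change on adding PNPi+dG/rG (horizontal axis) without polyU, in green, and with polyU, in red, for each member, with 95% intervals; filled points passed an adjusted p of 0.05 and dashed lines are the medians of all genes. The intervals of Irf1 (0.39 against 1.21), Irf5 (0.005 against -0.34) and Irf8 (-0.04 against -0.999) do not overlap between the 2 colours. Irf1 lies right of 0, and Irf5 and Irf8 with polyU lie left of it.

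The natural ligand pair and R848 left different IRF mRNA levels. In the combination compared with R848, Irf1 was 3.80-fold higher (log2 1.93 ± 0.072, adjusted p = 3.3e-12), Irf5 3.57-fold higher (1.83 ± 0.063, 4.4e-12) and Irf7 2.21-fold higher (1.15 ± 0.089, 1.9e-06), while Irf8 was 2.06-fold lower (-1.04 ± 0.055, 1.5e-10). On that second scale these 4 kept their direction and call, at 1.54, 1.45, 0.76 and -1.43. Irf2 (log2 0.28, adjusted p = 0.000260) and Irf3 (0.21, adjusted p = 0.0107) were also higher, so that 5 members were higher (53.9% of all genes) and 1 lower (16.9%), but both turned to lower with equal medians, at -0.11 for Irf2 (adjusted p = 0.0872) and -0.17 for Irf3 (adjusted p = 0.0278). Irf3 was not called without R848 replicate 1 (adjusted p = 0.0716). Irf4 gave a log2 difference of 0.15 with a 95% interval of -1.01 to 1.30, which leaves changes of either sign possible at this depth. The 2 treatments are single doses of unlike agents, and the summed fibroblast markers above were high with R848 alone. Most of that sum was the collagen genes Col1a1 (51.6 and 58.3 CPM) and Col1a2 (40.9 and 40.2 CPM).

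Scaled by the length of all annotated exons of a gene merged, the order of the family changed with the ligand. Which transcripts were expressed was not measured, so places between genes depend on that length, while changes within a gene do not. With vehicle the mean CPM per kb ran from Irf5 (99.3) through Irf7 (69.9), Irf8 (32.7), Irf3 (15.4), Irf2 (10.5) and Irf1 (5.49) to Irf4 (0.223). With the combination, Irf7 (134) came first, then Irf5 (85.4), Irf1 (63.3), Irf3 (16.3), Irf8 (10.9) and Irf2 (10.3), so Irf1 moved from the sixth place to the third and Irf8 from the third to the fifth. With R848, Irf7 (60.7) also led, then Irf5 (23.9), Irf8 (22.4), Irf1 (16.7) and Irf3 (14.1). Over the 5 groups the ratio of the highest to the lowest group mean was 11.5 for Irf1, 5.23 for the low Irf4, 4.53 for Irf5, 3.01 for Irf8, 2.21 for Irf7, 1.32 for Irf2 and 1.31 for Irf3.

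**Figure D4:**
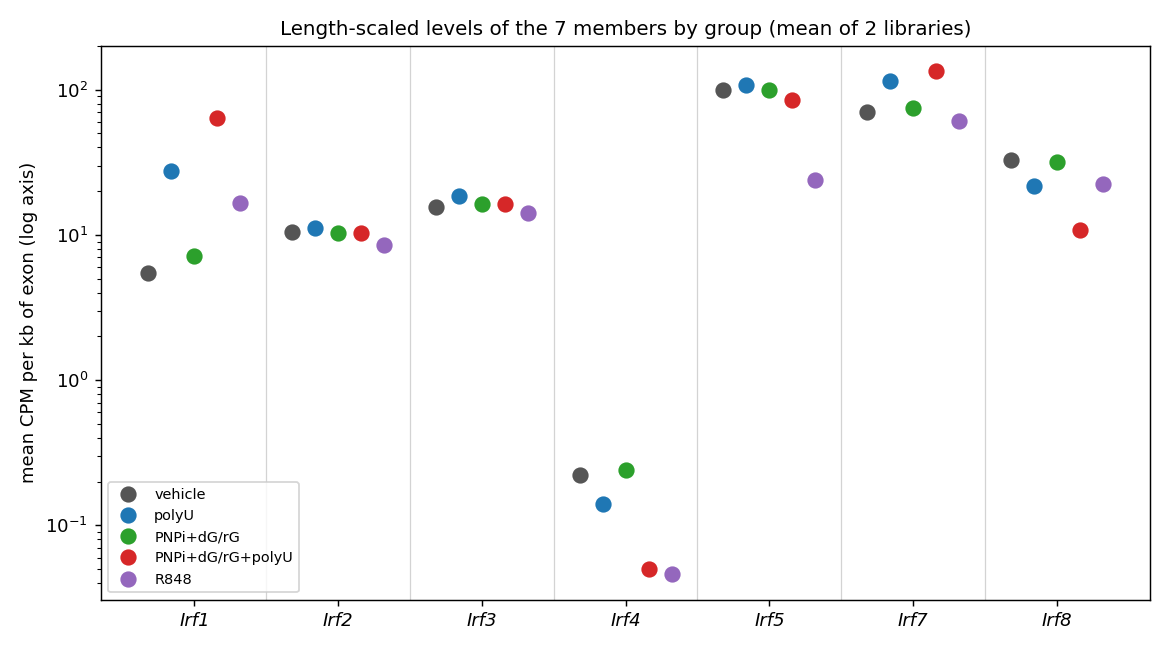
Mean CPM per kb of exon (vertical log axis, 2 libraries per point) of the 7 members, coloured by group. Irf1 spans 5.49 to 63.3, Irf5 drops to 23.9 with R848 alone, and Irf2 and Irf3 stay within a narrow band.

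Irf9, a relative outside the 7 members and the DNA-binding subunit of the ISGF3 complex, had 64.8 and 59.6 CPM with vehicle, 74.1 and 68.5 with PNPi+dG/rG, 88.7 and 99.8 with R848, 113 and 120.1 with polyU, and 128 and 134 with the combination. It rose 1.88-fold with polyU (adjusted p = 4.6e-08), 2.10-fold with the combination (8.3e-10) and 1.52-fold with R848 (5.7e-07), and 123 of its exon bases lie in Rnf31 on the same strand.

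Most genes of proteins that act with IRFs on DNA rose with polyU, the combination and R848. This and the following lists were chosen with earlier results of these data known, so their counts are not an independent test. Beside the counts of this and the following lists stand the shares of all genes that rose and fell: 20.6% and 18.7% with polyU, 22.2% and 46.7% with the combination, and 19.2% and 62.9% with R848. With equal medians they were 17.2% and 22.8%, 33.2% and 33.2%, and 43% and 34.6%. Of 8 listed partners 6 were tested, as Spib and Batf3 did not pass the filter. All 6 rose with polyU (5 with equal medians) and with the combination. With the combination their median log2 fold change was 1.88 against -0.22 for all genes. Untested Batf3 went the other way, from 0.842 and 0.899 CPM with vehicle (15 and 16 reads). It had 0.283 and 0.141 CPM with the combination and 0.0532 and 0.123 with R848. Batf, an AP-1 factor that pairs with IRF4 and IRF8, went from 3.48 ± 0.24 CPM (mean ± SD) with vehicle to 62.1 ± 7.6 with the combination and 66.9 ± 5.8 with R848. Batf2, a partner of IRF1 in activated macrophages, reached 41.6 ± 4.9 with the combination and 13.6 ± 1.6 with R848 from 4.66 ± 0.31. Stat2 reached 374 ± 32 CPM with polyU, 520 ± 13 with the combination and 165 ± 20 with R848 from 97.1 ± 4.6. Spi1, which encodes PU.1, rose 2.22-fold with R848 and 1.96-fold with the combination, and Ikzf1, the gene of Ikaros, rose from 96.3 ± 1.9 CPM to 264 ± 5.8 and 243 ± 8.9. With R848 5 of the 6 rose, and 6 with equal medians.

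With the combination and R848, genes of IRF co-repressors fell and the ubiquitin ligase gene Trim21 rose. Irf2bp2, which encodes an IRF2-binding co-repressor, went from 181 ± 7.9 CPM with vehicle and 187 ± 3.2 with polyU to 76.2 ± 1.6 with R848 and 25.0 ± 2.9 with the combination (log2 -2.86 from vehicle, adjusted p = 4.9e-15). Its relative Irf2bpl fell at each polyU or R848 treatment, from 153 ± 8.8 CPM to 90.1 ± 2.6 with polyU, 46.3 ± 5.2 with R848 and 31.9 ± 0.14 with the combination. Irf2bp1 fell less, from 41.4 ± 1.9 to 25.6 ± 0.46 with the combination and 24.5 with R848, and the R848 call was lost with equal medians. Trim21, a ubiquitin ligase that acts on IRF3, IRF5, IRF7 and IRF8, rose from 26.3 ± 3.3 CPM to 149 ± 4.5 with the combination, 73.1 ± 1.3 with polyU and 43.0 ± 3.1 with R848. Of the 6 genes in this list, 3 rose and 1 fell with polyU (2 and 1 with equal medians), 1 rose and 3 fell with the combination (2 and 3), and 1 rose and 5 fell with R848 (2 rose and 3 fell with equal medians).

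Of 13 tested genes of the TLR7 route to IRFs (14 listed, with Tasl unmatched), 7 rose and 0 fell with polyU, 6 rose and 2 fell with the combination, and 6 rose and 3 fell with R848. With equal medians these were 7 and 1, 10 and 0, and 11 and 2. PNPi+dG/rG raised Traf3 and lowered Tlr7, and Traf3 was not called with equal medians. Ikbke, the gene of the IRF kinase IKKε, gave the largest change of the list with the combination, from 88.2 ± 2.5 CPM to 311 ± 14 with polyU, 514 ± 7.7 with R848 and 624 ± 6.2 with the combination. Myd88, the adaptor, went from 74.1 ± 0.61 to 200.2 ± 0.62 with the combination and 186 ± 13 with R848, and Tbk1, the other kinase of IRF3, from 119 ± 5.7 to 173 ± 5.8 and 185 ± 7.3. Ikbkb, the gene of IKKβ, which phosphorylates IRF5, rose more with R848 (244 ± 8.3 CPM) than with the combination (176 ± 5.3; adjusted p = 8.7e-07), from 104 ± 5.4.

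**Figure D5:**
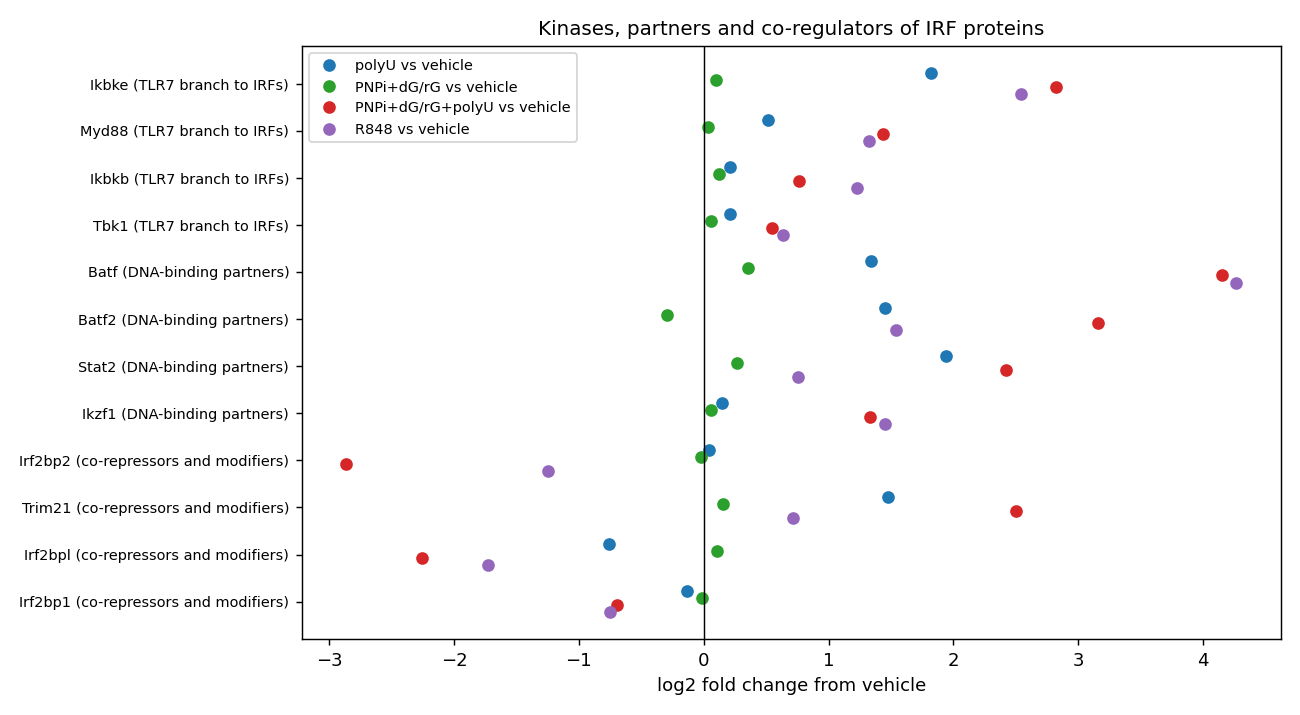
Log2 fold change from vehicle (horizontal axis) of the named genes of the TLR7 route, the DNA-binding partners and the co-repressors and modifiers, one colour per treatment (means of 2 libraries per group). Batf and Ikbke lie far right with the combination and R848, and Irf2bp2 lies far left at -2.86 with the combination.

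Of genes known to be induced through IRF1, all 10 listed rose with polyU (median log2 fold change 1.21 against 0.02 for all genes) and with the combination (2.32 against -0.22), on both scales. With R848 7 rose and 2 fell, Psmb9 and Ciita, which act in antigen presentation. With equal medians 9 rose and 0 fell with R848. On that scale Psmb9 turned to a rise (log2 0.40, adjusted p = 5.2e-05) and Ciita was not called. Gbp5, a guanylate-binding protein, had 3.28 ± 0.83 CPM with vehicle, 36.7 ± 3.9 with polyU, 302 ± 12 with R848 and 406 ± 0.31 with the combination. Nos2, inducible nitric oxide synthase, had 0.590 ± 0.20, 3.86 ± 1.3, 304 ± 23 and 85.5 ± 11 CPM in the same order, so its highest level lay with R848. Il27 reached 99.3 ± 0.38 with the combination and 111 ± 3.8 with R848 from 0.674.

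Of 7 genes induced through IRF3 and IRF7, 6 were tested and 5 rose with each of polyU, the combination and R848 (4 with polyU at equal medians). Cxcl10, a chemokine, had 8.96 ± 2.9 CPM with vehicle, 209 ± 14 with polyU, 92.3 ± 1.2 with R848 and 792 ± 19 with the combination, and Ifit1, an antiviral RNA-binding protein, 32.1 ± 10, 350 ± 36, 155 ± 17 and 857 ± 3.9. Isg15 followed the same order, from 17.9 ± 2.1 to 254 ± 8.3 CPM. Ccl5 was 1.22-fold higher with polyU (adjusted p = 0.0453; 0.0765 with equal medians) and rose from 48.9 ± 4.1 CPM to 621 ± 55 with the combination and 603 ± 64 with R848. Between the latter groups its log2 difference was 0.04 (adjusted p = 0.710), and -0.34 with equal medians (adjusted p = 0.0102). The interferon genes in the list, Ifnb1 and Ifna4, were scarce, and other interferon genes were not listed. Ifnb1 had 19 and 15 reads (1.34 and 1.06 CPM) with the combination, 8 and 3 with polyU and 0 to 3 elsewhere. It was not called in limma for the combination against vehicle (log2 8.97 ± 3.92 SE, adjusted p = 0.0545). Its vehicle libraries had 1 and 0 reads. Their values of 0.0562 and 0.0001 CPM, the latter only the amount added to every deposited value, lie far apart in log2. The test therefore cannot decide whether Ifnb1 rose. Ifna4 had 1 read in 1 library.

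Of 5 cytokine genes induced through IRF5, 5 rose with R848 and 4 with the combination. Tnf had 54.8 ± 2.2 CPM with vehicle, 252 ± 9.6 with polyU, 2115 ± 73 with R848 and 3284 ± 184 with the combination, and Il12b had 1.35 ± 0.081, 9.27 ± 1.7, 955 ± 1.4 and 1824 ± 32. Il6 had 0 and 1 reads with vehicle, 1.18 ± 0.14 CPM with polyU, 272 ± 11 with R848 and 81.9 ± 7.7 with the combination. Tnf was also 1.51-fold higher with PNPi+dG/rG alone (adjusted p = 0.00529).

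Of 6 genes that need IRF8 in myeloid cells, 3 rose (Il18, Cybb and Ncf1) and 2 fell with the combination, and 3 rose and 3 fell with R848, while with equal medians 5 rose and 1 fell, and 6 rose. Cybb, the catalytic subunit of the phagocyte oxidase, went from 826 ± 19 CPM with vehicle to 2435 ± 23 with the combination and 3608 ± 19 with R848, and Ncf1, another subunit, from 440 ± 16 to 759 ± 4.1 and 965 ± 15. Nf1 fell from 122 ± 0.17 to 87.6 ± 2.6 with the combination, and with R848 the fall turned to a rise once medians were equal. Of 4 genes induced through IRF4, Retnla and Pdcd1lg2 were too low to test, and Arg1 and Chil3 had at most 1.13 and 1.85 CPM in any library, Arg1 being highest and Chil3 lowest with R848.

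The genes most like each member in pattern were found by Pearson correlation of log2(CPM + 1) over the 10 libraries among the 8453 genes averaging 10 CPM or more, and the 10 libraries share their treatments, depth and scaling. Nearest to Irf1 were the lectin gene Clec4a3 (r = 0.999), the interferon-inducible GTPase gene Igtp (r = 0.998) and Ogfr (r = 0.997). Igtp, for example, had mean levels of 15.1, 68.7, 19.8, 151 and 43.7 CPM in vehicle, then polyU, then PNPi+dG/rG, then the combination, then R848. Nearest to Irf5 were Hfe, an iron-regulating gene (r = 0.996), and the endoplasmic reticulum chaperone genes Sdf2l1 (r = 0.995) and Hsp90b1 (r = 0.995). Irf7 was most like Igbp1 (r = 0.991), Fbxw17 (r = 0.988) and Lgals9 (r = 0.988). Irf8 was most like Ubash3b (r = 0.995), Hs6st1 (r = 0.990) and Ppp1r9b (r = 0.990). For the low Irf4 these were Rab21, G3bp2 and Cmpk1 (r = 0.984 to 0.977).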

How the data were processed

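RNA was measured in 10 BMDM libraries, 2 for each of 5 groups, grouped by their labels. Per the study's methods, the authors prepared stranded mRNA libraries (KAPA), sequenced 50 bp single reads on an Illumina instrument, demultiplexed with bcl2fastq 2.19.1.403, mapped with STAR 2.27a, counted reads per gene on Ensembl release 97 (GRCm38) and deposited CPM with an offset of 0.0001 from Partek Flow. How reads in several genes were counted is not given in the sources used here. CPM hold no correction for a few genes taking up a library.

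Reads per library were worked back from the CPM steps (100% of values up to 200 reads came within 0.02 of a whole read). limma 3.58.1 (R 4.3.3, eBayes with trend and robust) was fitted to log2 of the deposited CPM of all 5 groups, over the 11978 genes that reached 1 CPM in 2 or more libraries, with Benjamini-Hochberg adjustment per comparison. Higher and lower mean an adjusted p under 0.05, and fold changes are on the log2 scale with the offset. The interaction subtracts the log2 effect of PNPi+dG/rG without polyU from the one in its presence. Scripts were tested on simulated data.

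Positions and exon lengths are from GENCODE vM21 (Ensembl 96), promoters from RefSeq GRCm38.p6, and symbols matched 55394 of 55573 identifiers. Members and gene lists were chosen with earlier results of these data known. All members were named, with up to 4 genes per list: those called with the largest change in PNPi+dG/rG+polyU against vehicle and 10 CPM or more in each library of some group. Spi1, Batf3, Traf3, Tlr7, Psmb9, Ciita, Ifnb1, Ifna4, Arg1, Chil3, Col1a1 and Col1a2 were named after their values were seen. Some listed genes are not reported here. Replicates were separate libraries: within groups a chi-square test at the 5% level set apart 15.8% to 26.3% of genes, and no values were identical. Alternatives covered scaling, filters, pseudocounts, the variance model, the samples fitted, a replicate block and each library left out.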

Additional observations from a re-analysis of the deposited data

Results flagged for a closer look

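By the interaction term in limma, 4 members responded to PNPi+dG/rG differently in the presence of polyU than in its absence. Of these, 1 was higher, as were 11.8% of all genes tested, and 3 were lower, as were 38.9%. Nothing particular to the family is read from this count. The log2 difference between the 2 effects was 0.822 for Irf1 and -0.958 for Irf8, and both kept their call under every alternative run. It was -0.347 for Irf5 and -0.262 for Irf3, and neither was called with equal medians. The Irf3 call was also lost on leaving out most single libraries of the groups compared, as given above.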

How the results depend on the processing

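Of 924 gene values recomputed for the 49 member differences, 856 kept direction and side of the threshold, 42 lost the call, 15 gained it and 11 turned, and 18 of 31 calls held throughout. All 11 turned values came from equal medians: Irf2 0.18 (PNPi+dG/rG+polyU against vehicle), 0.29 (R848 against vehicle), 0.13 (PNPi+dG/rG+polyU against polyU), -0.11 (against R848) and 0.20 (interaction); Irf3 0.46 (R848 against vehicle), 0.070 (PNPi+dG/rG+polyU against polyU), -0.17 (against R848) and 0.025 (interaction); Irf7 0.39 and Irf8 0.048 (R848 against vehicle). Equal medians also changed these counts of members: PNPi+dG/rG+polyU against vehicle, higher 2 to 4 and lower 3 to 2; R848 against vehicle, higher 1 to 4 and lower 4 to 2; PNPi+dG/rG+polyU against polyU, higher 2 to 3 and lower 4 to 1; against R848, higher 5 to 3 and lower 1 to 2; interaction, higher 1 to 3 and lower 3 to 1. For PNPi+dG/rG+polyU, equal medians called 30.1% of all genes higher and 25.3% lower against polyU, and 28.4% and 37.5% against R848. For the interaction these shares were 24.1% and 17%. Among called genes only, equal medians moved the share that was higher from 23.4% to 55.4% (R848), 32.2% to 50.0% (PNPi+dG/rG+polyU) and 51.0% to 27.3% (PNPi+dG/rG). That share also moved from 25.0% to 54.3% (against polyU), 76.1% to 43.1% (against R848) and 23.3% to 58.6% (interaction). These changes follow from subtracting each library's median.

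Plain eBayes gave 0 members higher for PNPi+dG/rG against vehicle in place of 1. For PNPi+dG/rG+polyU against polyU, higher went from 2 to 1 with no filter, plain eBayes or the replicate block, and lower from 4 to 2 with no filter; the cause was not tested. Leaving out single libraries gave 0 to 1 (PNPi+dG/rG, higher), and 1 to 2 higher and 2 to 4 lower for PNPi+dG/rG+polyU against polyU. A lone remaining library was taken to vary like the other groups. Irf4 was not tested with the filter on the mean.

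Deviations of same-numbered libraries correlated at r from -0.286 to 0.109 (median -0.023, over 10 pairs of groups and 8459 genes). The lowest values were those of PNPi+dG/rG with vehicle (-0.286) and with polyU (-0.273), while vehicle with polyU gave 0.109. Whether PNPi+dG/rG numbers run crosswise to the others is not given by the labels. Numbers were not taken as pairs, and the replicate block changed no member's call other than Irf7 above. Crossing the numbers of PNPi+dG/rG, chosen after seeing the data, gave 65 higher and 75 lower genes for PNPi+dG/rG against vehicle, where the block gave 53 and 51 and no block 49 and 47. Over all genes this comparison gave 11 and 2 with plain eBayes, 36 and 96 with equal medians, 31 and 80 with only its own groups fitted, 37 and 27 with no filter, and 9 and 1 without PNPi+dG/rG replicate 2. Count-based tests were planned but not run. Depth limits Irf4, Ifnb1 and Ifna4, and the offset at 0 reads also limits the test of Ifnb1.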
